A study of Mus musculus with 6 samples.

Results

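The genes described are 48 that run, license or restrain the mitotic cell cycle. They were taken by symbol: each is the only gene listed for its probe set, and where several probe sets named a gene the one with the highest mean over all 6 arrays was used. All 48 were found among the 19938 genes measured in this way. They form 4 lists: 10 regulators of the G1 phase, 11 genes of DNA replication, 22 genes of mitosis and of the S and G2 phases that lead to it, and 5 inhibitors of cyclin-dependent kinases (CDKs). The study cultured dermal cells of newborn C57BL/6 mice for 2 days and hybridised their RNA to Affymetrix arrays, 3 for cells labelled DMSO, after the solvent, and 3 for cells labelled FR. FR cells received 20 µM forskolin, an activator of the enzyme that makes cyclic AMP, together with 20 µM RepSox, which inhibits the type I TGF-β receptor kinase; neither compound was given alone, so their parts cannot be told apart. Levels are log2 RMA values, a difference of 1 being 2-fold, and every change is given as FR minus DMSO, from 3 arrays on each side.

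In G1, D-type cyclins switch on CDK4 and CDK6, which phosphorylate the retinoblastoma protein and so free E2F factors to transcribe the genes of S phase. Minichromosome maintenance (MCM) helicases are then loaded onto origins and DNA is copied, and a later wave of transcription, driven by FoxM1 and B-Myb, supplies the cyclins, kinases, kinesins and kinetochore proteins of mitosis. Inhibitors of the INK4 family bind CDK4 and CDK6, while those of the CIP/KIP family act on several cyclin-CDK complexes. In fibroblasts TGF-β and cyclic AMP are both known to bear on this machinery at the step from G1 to S.

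With FR, 12 of the 22 mitosis genes fell, 9 of the 11 replication genes did not pass in either direction, the cyclin D1 gene fell, and 3 of the 5 CDK inhibitor genes rose. Not passing was the common outcome: of all 19938 genes tested, 14379 did not pass. Of the 48 genes, 16 fell and 5 rose at an adjusted p under 0.05 (limma, Benjamini-Hochberg adjustment over all genes). Among all genes tested, 27.9% passed, 14.5% as lower and 13.4% as higher, against 33.3% lower and 10.4% higher for the 48. That comparison takes in many dim genes, whereas none of the 48 was under background with DMSO. Among the 11999 genes left by a filter on dim genes, 26.7% passed as lower and 17.8% as higher, against 40.4% and 12.8% of the 47 members kept. The median change was -0.12, and that of all genes was 0.05. The count of 5 higher dropped to 2 when DMSO replicate 1 or 2 was left out and to 3 when DMSO replicate 3 or FR replicate 1 or 2 was. Only Ccnd1 changed at least 2-fold, which 3.13% of all genes did. In 23 of the 48 every FR array lay below every DMSO array (20.9% of all genes), and in 8 every FR array lay above (23% of all genes). With arrays centred on their medians, the share of lower genes among all calls was 64.7% in place of 52%.

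**Figure D1:**
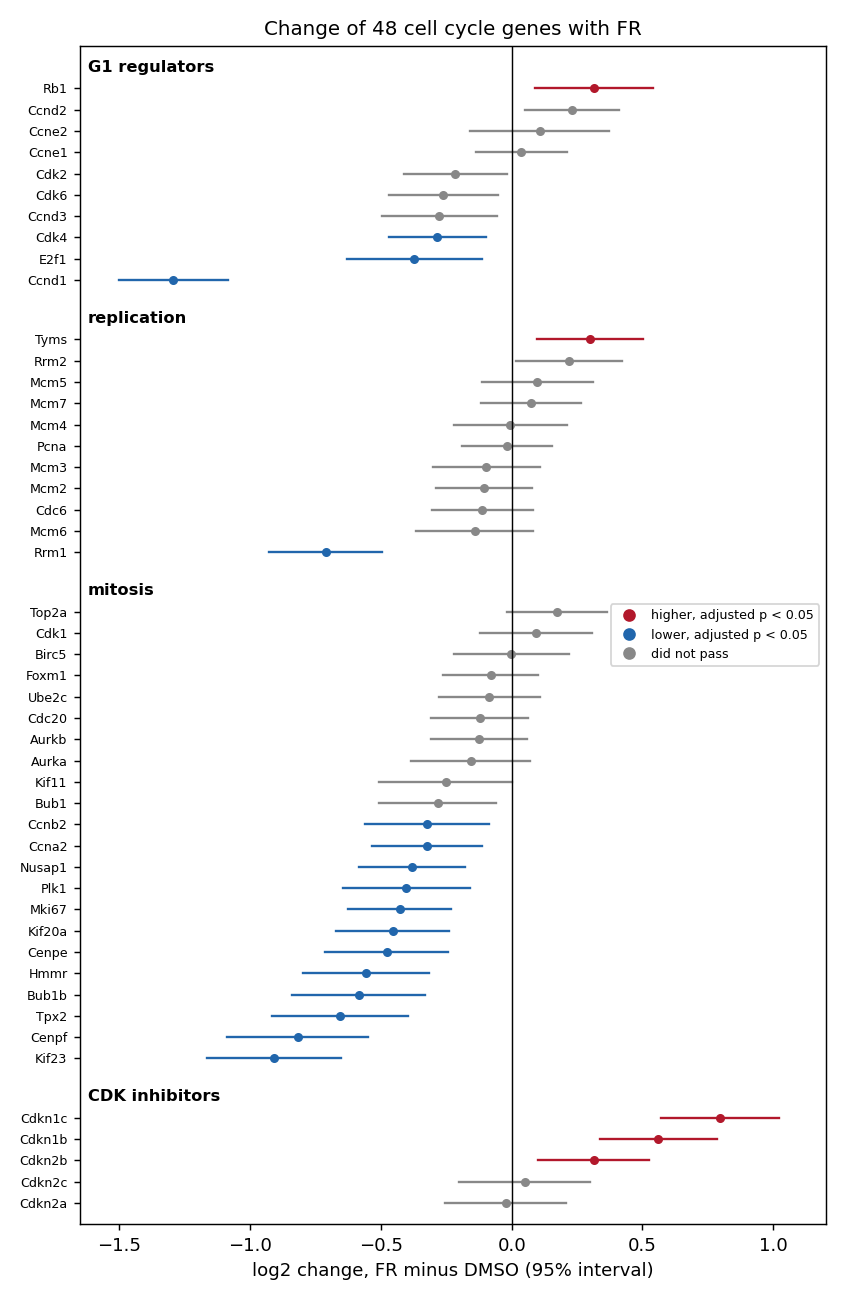
Log2 change (FR minus DMSO, n = 3 arrays per group) of each of the 48 genes, grouped by list, with points for the change and lines for its 95% interval; colour marks the 16 lower and 5 higher genes that passed. Mitosis genes lie mainly left of 0, replication genes around 0 except Rrm1, Tyms and Rrm2, and the inhibitors Cdkn1c, Cdkn1b and Cdkn2b right of 0. The Rrm2 line lies right of 0, though the gene did not pass.

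Of the 22 mitosis genes, 12 fell and 0 rose, and 20 of the 22 changes were below 0 (median -0.32). The 12 falls ran from -0.32 to -0.91, or 1.25-fold to 1.88-fold lower, and in each of them the groups did not overlap. At an unadjusted level of 0.05 no mitosis gene rose either: the 2 changes above 0 were those of Top2a and Cdk1, whose 95% intervals both took in 0. With dim genes left out, 13 of the 22 fell (59.1%, against 26.7% of all genes kept).

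Kif23 encodes the kinesin MKLP1 of the central spindle, which is needed for cytokinesis. Its level was 8.10, 8.22 and 7.94 on the DMSO arrays and 7.38, 7.18 and 6.97 on the FR arrays. The highest FR array thus lay well under the lowest DMSO array, and the gene was 1.88-fold lower (log2 change -0.91, SE 0.12, adjusted p = 0.000177). Cenpf, which encodes a large kinetochore protein of G2 and M phase, had levels of 7.93, 7.99 and 7.72 with DMSO and 7.32, 6.92 and 6.94 with FR. It was 1.76-fold lower (adjusted p = 0.000531), with FR replicate 1 somewhat above the other FR arrays. Cenpe, the kinetochore motor that moves chromosomes to the spindle equator, went from 8.32, 8.33 and 8.12 to 7.93, 7.82 and 7.59 (log2 change -0.48, SE 0.11, adjusted p = 0.00682).

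Tpx2, which binds microtubules and activates Aurora A, was at 8.57, 8.60 and 8.31 with DMSO and 8.04, 7.66 and 7.81 with FR (1.58-fold lower, adjusted p = 0.00179). Hmmr, a spindle protein and hyaluronan receptor, was at 8.36, 8.55 and 8.40 with DMSO and 8.05, 7.67 and 7.92 with FR (log2 change -0.56, adjusted p = 0.00319). Both genes were clearly apart between the groups, and both had their lowest value on FR replicate 2. Nusap1, which bundles spindle microtubules, fell by 0.38 (adjusted p = 0.0101), and Kif20a, the kinesin MKLP2 that carries Aurora B to the midzone, fell by 0.46 (adjusted p = 0.00562).

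Checkpoint and kinase genes were divided. Bub1b, which encodes the spindle checkpoint kinase BubR1, went from 8.05, 8.30 and 8.16 to 7.76, 7.64 and 7.35 (1.5-fold lower, adjusted p = 0.00337). Its relative Bub1 also lay lower on every FR array, from 7.70, 7.82 and 7.67 with DMSO to 7.64, 7.38 and 7.32, but missed the threshold (log2 change -0.28, 95% interval -0.51 to -0.06, adjusted p = 0.0596), passing without FR replicate 1 (adjusted p = 0.0142). Plk1, the Polo-like kinase that acts from mitotic entry to exit, fell by 0.40 (adjusted p = 0.0193). Plk1 no longer passed when DMSO replicate 2 (adjusted p = 0.0808) or FR replicate 3 (0.0725) was left out. The Aurora kinase genes did not pass: the change was -0.16 for Aurka (95% interval -0.38 to 0.07) and -0.13 for Aurkb (-0.31 to 0.06). Aurkb lay slightly lower on every FR array, whereas Aurka overlapped between the groups.

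Mki67, whose product Ki-67 coats mitotic chromosomes and is the standard marker of cycling cells, had levels of 8.60, 8.69 and 8.43 with DMSO and 8.15, 8.14 and 8.14 with FR. The FR arrays were nearly equal and all below DMSO, a fall of 0.43 (1.35-fold lower, SE 0.09, adjusted p = 0.00484). Ccna2, the cyclin of S and G2 phase, was at 9.31, 9.39 and 9.17 with DMSO and 9.10, 8.89 and 8.92 with FR, and the mitotic cyclin gene Ccnb2 at 9.49, 9.66 and 9.31 with DMSO and 9.17, 9.28 and 9.04 with FR. Both fell by 0.32, with adjusted p of 0.0275 for Ccna2 and 0.045 for Ccnb2, and the gap between the groups was small beside their spread. Ccna2 no longer passed when DMSO replicate 1 (adjusted p = 0.0821) or 2 (0.107), or FR replicate 2 (0.0805) or 3 (0.0773), was left out. Nor did Ccnb2 when DMSO replicate 1 (0.102) or 2 (0.171), or FR replicate 1 (0.0773) or 3 (0.138), was left out. Neither gene passed with quantile normalization or cyclic loess, and Ccnb2 did not pass with array weights. Their partner kinase gene Cdk1 did not pass, at 8.19, 8.46 and 8.48 against 8.51, 8.49 and 8.41 (log2 change 0.09, 95% interval -0.12 to 0.31).

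Several genes of the same phase did not pass in either direction. Top2a, the topoisomerase that untangles sister chromatids, was at 9.22, 9.26 and 9.23 with DMSO and at 9.53, 9.30 and 9.40 with FR, higher on every FR array but with an adjusted p of 0.159 (log2 change 0.17, 95% interval -0.02 to 0.37). Birc5, which encodes the chromosomal passenger survivin, was at 8.62, 8.78 and 8.64 against 8.68, 8.84 and 8.52, with overlapping groups and a change of -0.0012 (95% interval -0.22 to 0.22). Foxm1, the transcription factor gene of the G2 and M programme, had a change of -0.08 (-0.26 to 0.10). Cdc20 and Ube2c, which encode an activator and the ubiquitin-conjugating enzyme of the anaphase-promoting complex, had changes of -0.12 (-0.31 to 0.06) and -0.09 (-0.28 to 0.11). Kif11, the kinesin that separates spindle poles, lay lower on every FR array but did not pass (-0.25, 95% interval -0.51 to 0.001, adjusted p = 0.126).

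**Figure D2:**
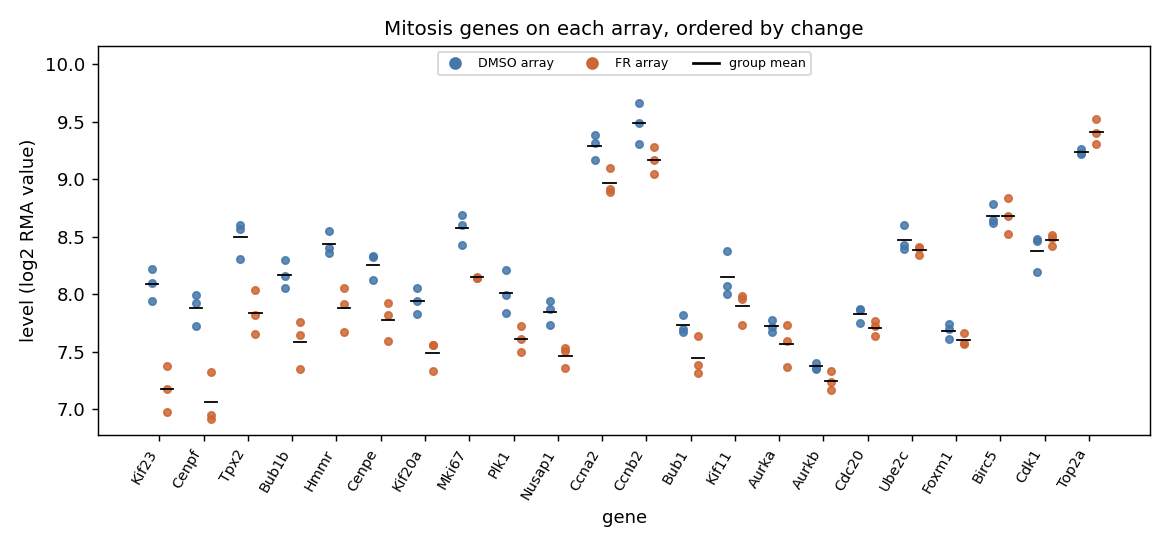
Level (log2 RMA value) of the 22 mitosis genes on each of 3 DMSO and 3 FR arrays, with a bar for each group mean, ordered from the lowest change to the highest. From Kif23 to Ccnb2, the 12 genes that fell, every FR point lies below every DMSO point, whereas Birc5 and Cdk1 overlap.

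Promoters of cell cycle genes are known for CCAAT boxes bound by NF-Y, for the cell cycle homology region (CHR) bound by the DREAM and B-Myb complexes, and for E2F sites; cyclic AMP acts through the cyclic AMP response element (CRE). These motifs were searched on both strands in the 250 bases before the RefSeq start sites (GRCm38.p6), which were listed for 37 of the 48 genes. The box was spelled CCAAT. A CHR match was either TTTGAA, the usual form of the element, or the variant spelling TTCGAA. An E2F match was any of these forms: TTTCCCGC as the first, then TTTGGCGC as another, then TTTCGCGC as another, and finally TTTGCCGC as the last. The CRE was the palindrome TGACGTCA, and E2F forms may overlap one another. The following 120 bases end at the base before the start site and are shown because they contrast mitosis genes that fell (Ccnb2, Cenpe) with some that did not pass (Cdc20, Cdk1), and replication genes (Mcm6, Rrm1) with an inhibitor gene that rose (Cdkn2b). They run 5′ to 3′ on the gene's strand, capitals marking every match.
Ccnb2, chr9:70421555-70421674, minus strand: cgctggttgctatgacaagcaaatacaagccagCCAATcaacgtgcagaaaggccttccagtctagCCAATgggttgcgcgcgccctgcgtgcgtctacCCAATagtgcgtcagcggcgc
Cenpe, chr3:135212443-135212562, plus strand: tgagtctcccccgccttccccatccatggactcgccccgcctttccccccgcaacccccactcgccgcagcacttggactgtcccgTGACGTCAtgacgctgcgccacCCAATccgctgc
Cdc20, chr4:118437344-118437463, minus strand: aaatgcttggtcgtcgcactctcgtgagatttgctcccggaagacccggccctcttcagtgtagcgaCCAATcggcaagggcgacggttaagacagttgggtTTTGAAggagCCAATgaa
Cdk1, chr10:69352913-69353032, minus strand: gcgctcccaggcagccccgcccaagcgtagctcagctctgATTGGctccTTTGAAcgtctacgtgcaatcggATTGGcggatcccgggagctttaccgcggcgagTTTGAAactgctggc
Mcm6, chr1:128359706-128359825, minus strand: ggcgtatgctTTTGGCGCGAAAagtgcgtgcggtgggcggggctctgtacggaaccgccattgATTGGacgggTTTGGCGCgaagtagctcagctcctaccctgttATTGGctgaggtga
Rrm1, chr7:102441575-102441694, plus strand: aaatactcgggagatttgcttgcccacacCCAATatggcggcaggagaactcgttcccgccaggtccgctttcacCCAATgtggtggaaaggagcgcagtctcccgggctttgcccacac
Cdkn2b, chr4:89311033-89311152, minus strand: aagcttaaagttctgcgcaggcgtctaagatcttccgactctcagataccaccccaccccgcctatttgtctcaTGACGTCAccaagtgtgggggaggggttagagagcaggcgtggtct

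In the stretches shown, Ccnb2 holds 3 CCAAT boxes (its CHR match, TTTGAA, lies at -167 from the start site, outside the stretch but inside the window searched), Cdk1 holds 2 CCAAT boxes and 2 CHR matches, and Mcm6 holds 3 E2F matches, of which the first 2 overlap. A CCAAT box stood in 15 of the 17 mitosis promoters listed and in 9 of the 11 replication promoters, against 33.8% of all 32851 promoters of the same length in the table. A CHR match stood in 8 of the 17 mitosis promoters, against 17.1% of all. Within the mitosis list, a CCAAT box was found for 8 of 9 genes that fell and 7 of 8 that did not pass, and a CHR match for 3 of 9 and 5 of 8. An E2F match stood in 4 of 11 replication promoters and 1 of 17 mitosis promoters (1.86% of all), and the CRE in 1 promoter each of the replication, mitosis and inhibitor lists (1.55% of all). The genes shown were picked with the changes known, and others differ. Mki67 and Bub1b, which fell, held CHR matches in the window searched, and Cdkn1b, which rose, held no CRE. A match describes the letters only, and no binding was measured.

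Of the 11 replication genes, 1 fell, 1 rose and 9 did not pass, with a median change of -0.02. That is 9.09% each way, against 14.5% lower and 13.4% higher of all genes tested. With dim genes left out, 1 of 10 fell and 1 rose (10% each, against 26.7% and 17.8% of all genes kept). The MCM helicase genes Mcm2 to Mcm7 all overlapped between the groups. Their changes lay between -0.14 and 0.10, and their 95% intervals together spanned -0.36 to 0.31. Mcm6, for instance, was at 8.19, 8.34 and 8.33 with DMSO and 8.21, 8.27 and 7.96 with FR, and Mcm4 at 7.73, 7.88 and 7.64 with DMSO and 7.89, 7.65 and 7.70 with FR. Pcna, the sliding clamp of DNA polymerases, was at 10.45, 10.47 and 10.44 against 10.48, 10.42 and 10.41 (change -0.02, 95% interval -0.19 to 0.15). A second Pcna probe set had the same value on 5 of the 6 arrays, so it adds no independent reading. The 95% intervals of the 9 genes that did not pass together spanned -0.36 to 0.42, and a gene that did not pass is not shown to be unchanged.

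Rrm1, the large subunit of ribonucleotide reductase, was at 9.21, 9.28 and 9.21 with DMSO and 8.71, 8.44 and 8.41 with FR. The groups were far apart for so tight a control, and Rrm1 was 1.64-fold lower (log2 change -0.71, SE 0.10, adjusted p = 0.0003). The small subunit gene Rrm2 lay the other way on every array, at 8.07, 8.14 and 8.13 against 8.43, 8.39 and 8.18, but did not pass (log2 change 0.22, 95% interval 0.02 to 0.42, adjusted p = 0.0983). It passed without FR replicate 3 (adjusted p = 0.0336). Tyms, thymidylate synthase, rose from 7.98, 7.96 and 7.94 to 8.21, 8.42 and 8.15 (log2 change 0.30, adjusted p = 0.0339), but did not pass when any DMSO array was left out (adjusted p of 0.0793, 0.0877 and 0.0964 for replicates 1, 2 and 3) or FR replicate 2 (0.0948). Cdc6, which loads the MCM complex, was dim: its FR mean of 5.68 lay under 5.92, the 95th percentile of 1027 olfactory receptor genes taken as background in FR, and its change of -0.11 did not pass.

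Of the 10 G1 regulators, 3 fell, 1 rose and 6 did not pass (median -0.24). That is 30% lower and 10% higher, against 14.5% and 13.4% of all genes tested. With dim genes left out, 5 fell and 2 rose (50% and 20%, against 26.7% and 17.8% of all genes kept). Ccnd1, which encodes cyclin D1, had the largest change of all 48 genes. It stood at 9.49, 9.69 and 9.59 with DMSO and 8.34, 8.39 and 8.16 with FR, more than 1 log2 unit apart between the nearest arrays, and was 2.45-fold lower (log2 change -1.29, SE 0.09, adjusted p = 2.98e-06). The other D-type cyclins moved less and did not pass. Ccnd2 was at 10.56, 10.52 and 10.47 against 10.71, 10.81 and 10.71, above DMSO on every FR array (log2 change 0.23, 95% interval 0.05 to 0.41, adjusted p = 0.0563). Ccnd3 was at 7.51, 7.57 and 7.81 against 7.31, 7.29 and 7.45, below DMSO on every FR array (-0.28, -0.50 to -0.06, adjusted p = 0.0613). The lower FR levels of Ccnd1 and Ccnd3 and the higher ones of Ccnd2 were thus on opposite sides, though only the first passed.

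The kinase genes served by these cyclins lay slightly lower. Cdk4 fell from 10.78, 10.70 and 10.85 to 10.52, 10.53 and 10.42 (log2 change -0.28, adjusted p = 0.0288). It no longer passed when DMSO replicate 1 (adjusted p = 0.0859) or 3 (0.111), or FR replicate 3 (0.0764), was left out. Cdk6 was at 7.31, 7.28 and 7.18 against 7.14, 6.99 and 6.86 (-0.26, adjusted p = 0.0616) and passed without FR replicate 1 (0.0267). Cdk2, the partner of E-type cyclins, had a change of -0.21 (adjusted p = 0.0955). The E-type cyclin genes overlapped between the groups, with changes of 0.04 for Ccne1 (95% interval -0.14 to 0.21) and 0.11 for Ccne2 (-0.16 to 0.37).

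E2f1, the activator of S phase genes, fell from 6.52, 6.70 and 6.42 to 6.03, 6.41 and 6.08 (log2 change -0.37, SE 0.12, adjusted p = 0.0362). FR replicate 2 nearly touched the lowest DMSO array, and the gene did not pass when DMSO replicate 1 (adjusted p = 0.0728) or 2 (0.131), or FR replicate 1 (0.0999) or 3 (0.115), was left out. Rb1, the retinoblastoma gene that holds E2F in check, rose from 7.53, 7.49 and 7.37 to 7.91, 7.58 and 7.85 (0.31, adjusted p = 0.0427). This call rested on nearly every array: without DMSO replicates 1, 2 and 3 the adjusted p was 0.0666, 0.0903 and 0.142, without FR replicates 1 and 3 it was 0.111 and 0.118. The count of 3 lower G1 regulators dropped to 1 without DMSO replicate 1 or FR replicate 3.

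Of the 5 CDK inhibitor genes, 3 rose and 0 fell (median 0.31). That is 60% higher, against 13.4% of all genes tested, or 17.8% with dim genes left out. Cdkn1c, which encodes p57, a CIP/KIP inhibitor, was at 8.08, 7.91 and 8.0 with DMSO and 8.89, 8.90 and 8.60 with FR. Every FR array was at least 0.5 above every DMSO array, and the gene was 1.74-fold higher (log2 change 0.80, SE 0.10, adjusted p = 0.000185). Cdkn1b, which encodes p27 of the same family, went from 10.30, 10.27 and 10.40 to 10.92, 10.70 and 11.04 (1.48-fold higher, adjusted p = 0.00187). Its second probe set disagreed: it was at 8.87, 9.02 and 8.89 with DMSO and 9.19, 8.80 and 8.94 with FR, overlapping, with a change of 0.05 (95% interval up to 0.29). The mean of the probe sets gave 0.31 for Cdkn1b (adjusted p = 0.0351).

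Among the INK4 genes, Cdkn2b, which encodes p15, was at 7.64, 7.69 and 7.82 with DMSO and 8.01, 8.17 and 7.90 with FR, without overlap (log2 change 0.31, adjusted p = 0.0341). Cdkn2b no longer passed when DMSO replicate 1 (adjusted p = 0.117) or 2 (0.0982), or FR replicate 1 (0.0553) or 2 (0.103), was left out, nor with centred arrays (0.0826). Cdkn2a, which encodes p16 and p19Arf, overlapped between the groups at 6.09, 6.21 and 6.00 against 6.01, 6.27 and 5.95, near the background level. Cdkn2c, which encodes p18, was at 7.92, 7.90 and 8.0 against 8.10, 8.14 and 7.72 (change 0.05, 95% interval -0.20 to 0.30). Only FR replicate 3 lay under the DMSO arrays of Cdkn2c.

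**Figure D3:**
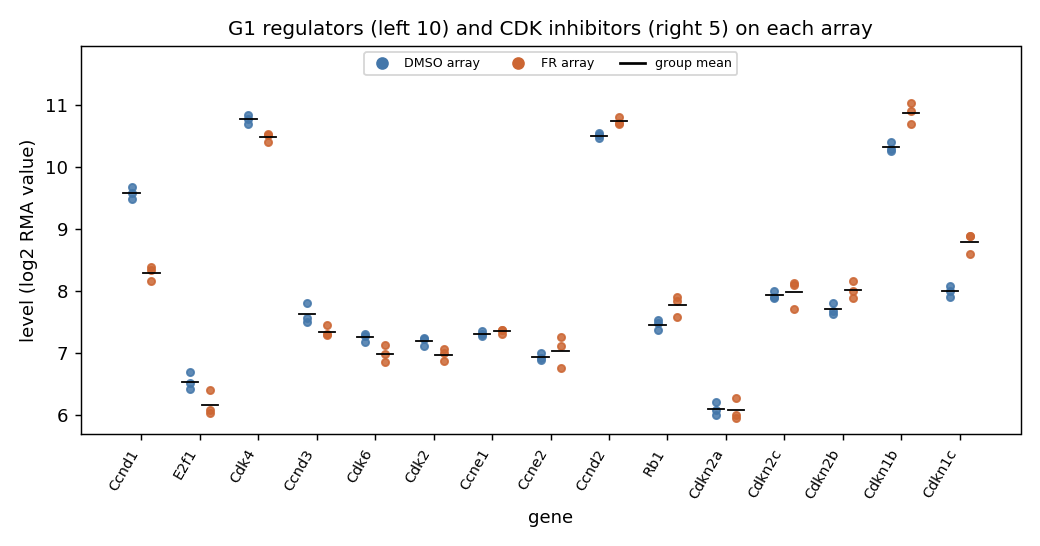
Level (log2 RMA value) of the 10 G1 regulators (left) and 5 CDK inhibitors (right) on each of 3 DMSO and 3 FR arrays, with bars for group means and genes ordered by change within each list. Ccnd1 shows the widest gap, 9.49 to 9.69 against 8.16 to 8.39, while Cdkn1b and Cdkn1c lie higher on every FR array.

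The mean level of the mitosis list was 8.24, 8.36 and 8.18 on the DMSO arrays and 8.02, 7.94 and 7.84 on the FR arrays, so the groups did not overlap. That of the replication list did overlap, at 7.80, 7.88 and 7.80 against 7.84, 7.81 and 7.70. Arrays of a group differed in the same way for many genes at once: DMSO replicate 2 had the highest DMSO value for 19 of the 22 mitosis genes and 10 of the 11 replication genes, and FR replicate 3 the lowest FR value for 15 and 8. The members are therefore not independent readings of the treatment. Without DMSO replicate 2, and likewise without FR replicate 3, 9 of the 22 mitosis genes fell in place of 12.

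**Figure D4:**
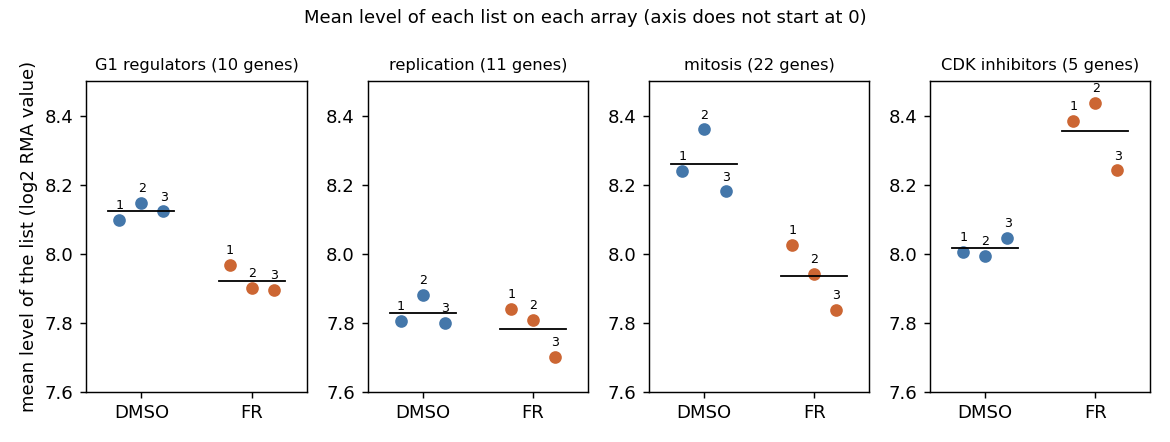
Mean level (log2 RMA value) of the genes of each list on each array, numbered by replicate, with a bar for the group mean. The mitosis means are 8.18 to 8.36 with DMSO and 7.84 to 8.02 with FR, whereas those of replication overlap.

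Other genes of the same machinery came from 6 further lists with 151 entries, which gave 146 with a measurement. The entry Mklp2 is another name of the member Kif20a and matched no symbol. Of the 146 measured, 33 fell and 11 rose (22.6% and 7.53%, against 14.5% and 13.4% of all genes tested), with a median of -0.09. With dim genes left out, 40 of 140 fell (28.6%, near the 26.7% of all genes kept), among them 22 of 58 spindle and kinetochore genes (37.9%). Of 59 spindle and kinetochore genes, 17 fell (28.8%, against 14.5% of all genes tested). In that list 1 rose, the condensin II gene Ncapd3 (0.47, named after its values were seen). Ckap2, a spindle microtubule protein, fell by 0.81, Prc1, which bundles midzone microtubules, by 0.74, the kinesin gene Kif2c by 0.58 and the kinetochore scaffold gene Knl1 by 0.55. Of 7 cytokinesis genes, 5 fell (71.4%, against 14.5% of all genes tested). With dim genes left out, 5 of 6 fell (83.3%, against 26.7% of all genes kept). Ect2, the exchange factor that activates RhoA at the cleavage furrow, fell by 0.77 (adjusted p = 0.00122). Anln, which encodes the furrow scaffold anillin, fell by 0.75, the kinase gene Cit by 0.51 and Racgap1, the partner of the Kif23 protein, by 0.50.

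Of 41 origin firing and fork genes, 5 rose and 5 fell (12.2% each, beside 13.4% and 14.5% of all genes tested), with a median of 0.07. With dim genes left out, 7 of 39 rose and 5 fell (17.9% and 12.8%, against 17.8% and 26.7% of all genes kept). Dbf4 fell by 0.68 (adjusted p = 0.000251) while Cdc7, the kinase that the Dbf4 protein activates, rose by 0.62 (adjusted p = 0.000974); the polymerase gene Pola1 rose by 0.46 and the origin recognition gene Orc6 by 0.45. The higher count of this list was 3 without any of the DMSO arrays or FR replicate 1, and the lower count was 2 without DMSO replicate 2. Of 13 genes for nucleotide and chromatin supply, 3 fell and 1 rose, which became 2 without FR replicate 3. With dim genes left out, 3 fell and 2 rose (23.1% and 15.4%, near the 26.7% and 17.8% of all genes kept). Without that filter, the gene that rose was the dUTPase gene Dut (0.72). The deoxycytidine kinase gene Dck fell by 0.51, the histone chaperone gene Chaf1b by 0.47 and Uhrf1, which helps to maintain DNA methylation, by 0.42.

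Among 24 further G1 and pocket protein genes, 4 rose and 2 fell (median 0.13). With dim genes left out, 4 of 22 rose and 3 fell (18.2% and 13.6%, against 17.8% and 26.7% of all genes kept). Myc, which drives growth and entry into the cycle, was at 9.04, 9.06 and 9.02 with DMSO and 10.64, 10.54 and 10.71 with FR. It was 3-fold higher (log2 change 1.59, SE 0.08, adjusted p = 2.89e-07), opposite in direction to Ccnd1. Cables1, which encodes a CDK-binding protein, rose by 0.72, the CDK-activating kinase gene Cdk7 by 0.38, and the pocket protein gene Rbl1 fell by 0.52. The mean of the Cdk7 probe sets did not pass (0.15, adjusted p = 0.191). Of 2 further inhibitor genes measured, Cdkn2d, which encodes the INK4 protein p19, fell by 0.38 (adjusted p = 0.0145), but did not pass when DMSO replicate 1 (0.0523) or 2 (0.0647), or FR replicate 3 (0.0517), was left out. The other also lay lower but did not pass (log2 change -0.23, 95% interval -0.43 to -0.03). With dim genes left out, 2 of 2 fell (100%, against 26.7% of all genes kept), opposite in direction to the 3 inhibitor members that rose. Cdkn1a and Ccnb1 were not analysed here.

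**Figure D5:**
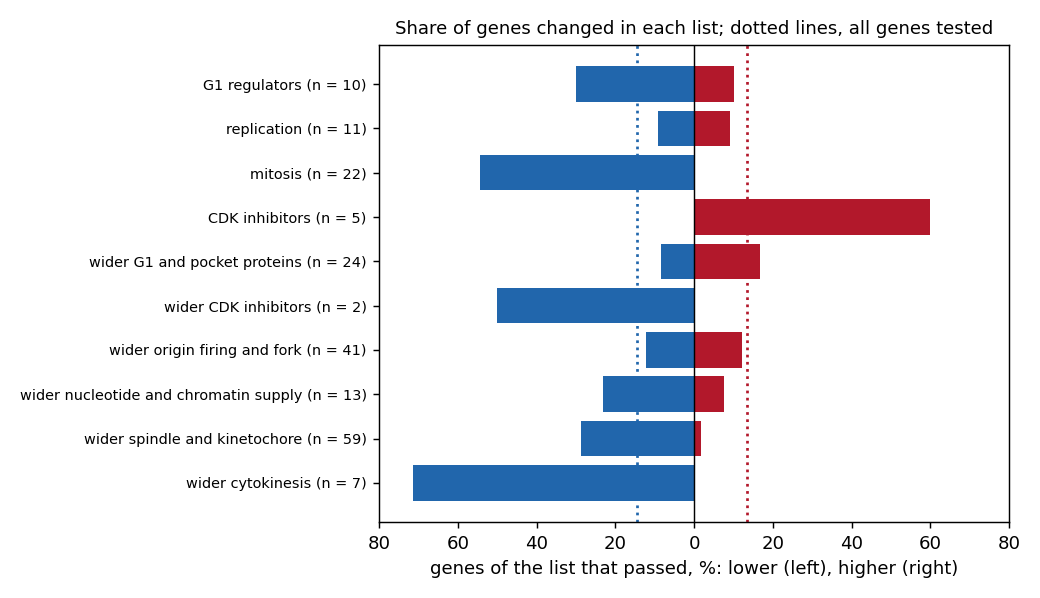
Percentage of the genes of each list that passed as lower (left) or higher (right), with n the genes measured and dotted lines at the 14.5% lower and 13.4% higher of all genes tested. On the lower side the mitosis list reaches 54.5% and the cytokinesis list 71.4%, while replication genes lie at 9.09% on both sides; with dim genes left out, all genes would stand at 26.7% lower and 17.8% higher.

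The cells carried fibroblast markers throughout: all 10 of a dermal fibroblast list, with Col1a1 and Pdgfra, lay above background, and 5 fell and 4 rose. Markers of some other cell types moved with the treatment beside the results above. Against these counts, 13.4% of all genes tested passed as higher and 14.5% as lower. Of 15 keratinocyte markers 13 rose and 0 fell, with a mean list level of 6.17 to 6.21 on DMSO and 7.03 to 7.12 on FR arrays, and 3 of the 15 were under background in each group. Of 12 myogenic markers 10 rose and 0 fell (5.69 to 5.76 against 6.45 to 6.59), with 5 under background with DMSO and 4 with FR. Endothelial markers (2 of 7 higher) and macrophage markers (0 of 7 higher, 1 without FR replicate 1) were mostly under background. Of 7 melanocyte and Schwann markers 3 rose and 1 fell, the 3 becoming 1 without DMSO replicate 1 or 2 or FR replicate 1 or 2. The background level itself was 5.65 with DMSO and 5.92 with FR, and the median change of the 1027 olfactory receptor genes was 0.14. Some markers counted as higher were under background in both groups. Whether a change in the mix of cells had a part in the cell cycle results was not tested, and in RNA from a whole culture fewer cycling cells cannot be told apart from less RNA of these genes per cycling cell.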

How the data were processed

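The table the authors deposited gives log2 levels of 35556 probe sets on 6 arrays. RMA and the oligo package are named per the submitters' processing notes, and the sources used here give no version of either. Such processing evens out array distributions, so a shift shared by all genes cannot be seen. The table had 0 missing values and 0 identical pairs of arrays. Titles gave the groups. Whether a group's arrays represent different cultures or animals is not labelled, so p-values speak only of the spread among these arrays, which could be technical. The number of arrays limits the precision.

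The platform annotation gave 21789 probe sets a single symbol, and 19938 genes entered 1 model (limma 3.58.1, R 4.3.3; lmFit and eBayes, two-sided, group as the only term, Benjamini-Hochberg adjustment over all genes, threshold 0.05, no filter on dim genes). The fit was tested on simulated data. Members, lists and alternatives were chosen with earlier results of these data known, and the motifs after the changes were seen. All 48 members are accounted for; from each further list up to 4 genes with the largest change that passed are named, and of the markers Col1a1 and Pdgfra. Promoters came from RefSeq, GRCm38.p6. Alternatives were quantile normalization, centring, a filter on dim genes, mean of probe sets, trended robust variance, array weights, a replicate block and leaving out each array; testing every probe set and cyclic loess were chosen after seeing the data.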

Additional observations from a re-analysis of the deposited data

How the results depend on the processing

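Of the 21 members called, 13 kept their direction and passed under all 15 alternatives, 8 were lost under at least 1 and 0 reversed, and 6 of 27 others passed under at least 1. The count of higher members, 5 as reported, was 2 with centred arrays, 3 with the replicate block, 8 with cyclic loess and 2 to 5 with an array left out. Higher G1 regulators (1) numbered 0 with centring or the block, 2 with quantile normalization, without dim genes, with trended robust variance or with cyclic loess, and 0 to 1 with an array left out; lower ones (3) numbered 5 with centring, without dim genes or with trended robust variance and 1 to 3 with an array left out. Higher replication genes (1) numbered 0 with centring, 2 with quantile normalization or cyclic loess and 0 to 2 with an array left out, and higher mitosis genes (0) numbered 1, Top2a, with cyclic loess. Lower mitosis genes (12) numbered 10 with quantile normalization or cyclic loess and 11 with array weights. They numbered 13 with centring, without dim genes or with trended robust variance, and 9 to 12 with an array left out. Changes that turned sign never passed: with quantile normalization Mcm4 0.065, Pcna 0.022 and Birc5 0.057; with cyclic loess Mcm4 0.065, Pcna 0.041 and Birc5 0.088; with array weights Mcm4 0.0053 and Birc5 0.0065; with centring Ccne1 -0.019 and Cdkn2c -0.0070. With an array left out, Mcm4 ranged from -0.077 to 0.058, Birc5 from -0.080 to 0.077, Cdkn2a from -0.12 to 0.042 and Cdkn2c from -0.027 to 0.18. The titles number the arrays of both groups, but deviations of same-numbered arrays did not go together (r of -0.073, 0.047 and -0.034 across genes). With 3 arrays per group this cannot decide whether same-numbered arrays shared a culture or animal, which is not labelled. With the block 25% of genes passed, and Cdk4 (adjusted p = 0.057), Rb1 (0.055) and Cdkn2b (0.0595) did not. Cdc6 drops out of the filter on dim genes. The cause of these shifts was not tested.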
